A study of Mus musculus with 8 samples.

Results

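Pdxp and Tcte3 are 2 mouse genes whose array probes stood out in the livers of Abcb4 knockout mice given the bile acid norUDCA. They were taken by RefSeq accession from the scanner files, with all their probes, and are 2 of the 305 genes that could be named on these arrays. Each is measured by a single probe, Pdxp through accession NM_020271 and Tcte3 through NM_011560. They were selected on their measured signal, which was higher in treated than in untreated livers, so those differences are given below as a description, without a test.

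Pdxp encodes pyridoxal phosphatase, also known as chronophin, a phosphatase of the haloacid dehalogenase family. It removes the phosphate from pyridoxal 5'-phosphate, the active form of vitamin B6 and the cofactor of many enzymes of amino acid metabolism, and it also dephosphorylates the actin-severing protein cofilin. The liver is a main site where vitamin B6 is converted to this cofactor. Tcte3 encodes a Tctex-type light chain of the dynein motor. It lies in the t-complex and is best known from the testis and the sperm tail.

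The study measured liver RNA on 8 single-colour Applied Biosystems arrays, with 2 arrays in each of 4 groups. All mice were FVB/N males aged 3 months. The groups were wild type (WT) mice left untreated, untreated Abcb4 knockout (KO) mice, KO mice treated with norUDCA for 3 days and KO mice treated for 4 weeks. Abcb4 is the canalicular transporter that moves phospholipid into bile, and mice without it develop a bile duct disease that resembles sclerosing cholangitis. NorUDCA is ursodeoxycholic acid with a shortened side chain. All treated mice carried the knockout, so the treatment was not measured in wild type livers. The names of the array files of the 4-week group carry a shorter length of treatment than its labels, and the labels were followed here. Nothing in the labels says that the 2 samples of a group came from separate animals, so p-values measure only the spread between these samples, which may be technical.

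The promoter of each gene is shown so that the letters before both starts can be set side by side. That both probes separate the same arrays was fixed by how the genes were chosen and is no support for a shared control. The windows run from 250 bases before to 50 bases after the annotated start and come from RefSeq on build GRCm38.p6. Pdxp lies on chromosome 15 (window chr15:78913669-78913968, plus strand) and Tcte3 on chromosome 17 (window chr17:15041510-15041809, minus strand). Capitals mark matches to the motifs searched, and the windows are written 5′ to 3′ on the strand of the gene.
Pdxp: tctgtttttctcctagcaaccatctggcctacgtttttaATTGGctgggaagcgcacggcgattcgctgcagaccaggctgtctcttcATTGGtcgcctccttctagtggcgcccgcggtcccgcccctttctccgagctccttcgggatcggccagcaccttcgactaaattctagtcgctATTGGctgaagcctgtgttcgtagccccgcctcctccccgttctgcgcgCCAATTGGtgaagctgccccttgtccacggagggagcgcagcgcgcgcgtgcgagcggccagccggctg
Tcte3: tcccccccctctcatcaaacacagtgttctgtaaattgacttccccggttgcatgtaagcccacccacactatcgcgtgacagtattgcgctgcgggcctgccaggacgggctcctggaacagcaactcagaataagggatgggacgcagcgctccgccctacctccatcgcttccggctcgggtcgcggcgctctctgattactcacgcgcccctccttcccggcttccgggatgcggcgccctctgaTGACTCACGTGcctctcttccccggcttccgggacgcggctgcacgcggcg

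Both strands were searched for 8 motifs. The first 6 were AGGTCA (the core site of nuclear receptors), its inverted repeat with 1 base between (bound by the bile acid receptor FXR), TGACNNNGC (the core of the antioxidant response element), CACGTG (the E-box), the X-box of RFX factors (known from ciliary genes) and TATAAA (the TATA box). CCAAT and TGACTCA, the AP-1 site, were added after the sequences had been seen. None of the first 6 motifs was found in the Pdxp window, which held 5 matches to CCAAT, 2 of which overlap near the start. Their first bases lie at -211, -162, -68, -19 and -16 from the start. The Tcte3 window held the E-box at 4 from the start and the AP-1 site at -1, and the 2 matches share bases. No motif was found in both windows. Among 32851 windows of 300 bases over all RefSeq genes, 37.4% held CCAAT, 7.15% held CACGTG and 5.2% held TGACTCA. The core site of nuclear receptors was in 16.3% of them, TGACNNNGC in 12.4%, TATAAA in 13.6%, the X-box in 0.128% and the inverted repeat in 0.00913%. Both windows were rich in G and C, at 62.0% for Pdxp and 64.0% for Tcte3 against a median of 52.7% over all windows (interquartile range 45.7 to 61.7). Such matches describe the letters and show no binding.

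Tcte3 has 2 copies beside it on chromosome 17, annotated as Gm3417 and Gm3448, whose RefSeq synonyms include Tcte3. Over the 300 bases the promoter windows of both copies had 0 differences from that of Tcte3. The probe cannot be assumed to tell the 3 genes apart, so the Tcte3 values may hold RNA of any of them.

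Across the arrays, 33.3% to 47.4% of the 33012 gene probes had signal over noise of 3 or more on the untreated arrays, the level called detected here, and 42.6% to 47.9% on the treated arrays. WT replicate 1 had the lowest share. The 75th percentile of the signal was 396.8 and 643.8 on the WT arrays, against 945.3 to 1511.9 on the other 6. Of the 6 hepatocyte markers with a tested probe, 5 were detected on all 8 arrays (Mup1, Pemt, G6pc, Dio1 and Sult5a1), and Hsd3b4 was detected on 5 arrays. A tested probe could be named for 11 of 91 markers in 4 of 9 cell type lists, and for none of the 15 markers of ciliated cells and the male germ line. In liver RNA as a whole, more cells of a type and more RNA per cell cannot be told apart.

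Pdxp, the vitamin B6 phosphatase, was near the background on every untreated array. Its deposited signal, on a linear scale without scaling between arrays, was 80.2 and 44.4 on the WT arrays and 81.5 and 93.6 on the KO arrays. The signal over noise there was -0.70, 1.02, -0.38 and 0.51. After 3 days of norUDCA the signal was 348.0 and 396.9, with signal over noise of 10.2 and 16.6. After 4 weeks it was 206.4 and 266.2, with signal over noise of 8.95 and 8.75. All 4 treated arrays therefore detected Pdxp, none of the 4 untreated arrays did, and the groups did not overlap. This is how the gene was chosen. Of all unflagged probes 0.312% had the same detection, and of all tested probes 5.42% had every treated array above every untreated one.

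Tcte3, the dynein light chain, showed the same pattern of detection. Its signal was 78.3 and 48.0 on the WT arrays and 123.5 and 125.6 on the KO arrays, with signal over noise of 0.34, 0.58, 0.29 and 1.60. It was 457.9 and 360.6 after 3 days (signal over noise 9.93 and 6.13) and 488.4 and 306.3 after 4 weeks (8.14 and 9.39). Between the highest untreated and the lowest treated value, signal over noise ran from 1.02 to 8.75 for Pdxp and from 1.60 to 6.13 for Tcte3. By the noise of each spot itself, no value of either gene therefore lay close to the threshold of 3. Against the median noise of the array, described below, Pdxp on replicate 1 of the 4-week group reached 3.02.

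Most of the untreated signals were not measured levels. On 3 of the 4 untreated arrays of each gene the listed signal equals the noise of its spot, which is how the files give spots that did not rise above it. Signal over noise multiplied by the noise, both as deposited, was taken as the measured signal. For Pdxp this was -56.2 and 44.2 in WT and -31.0 and 47.7 in KO. By the deposited sign, 2 of the 4 untreated spots therefore lay below background. For Tcte3 it was 26.6 and 27.8 in WT and 35.8 and 125.6 in KO. The Tcte3 spot of KO replicate 2 was the brightest of the untreated spots and reached 1.60 times its noise.

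**Figure D1:**
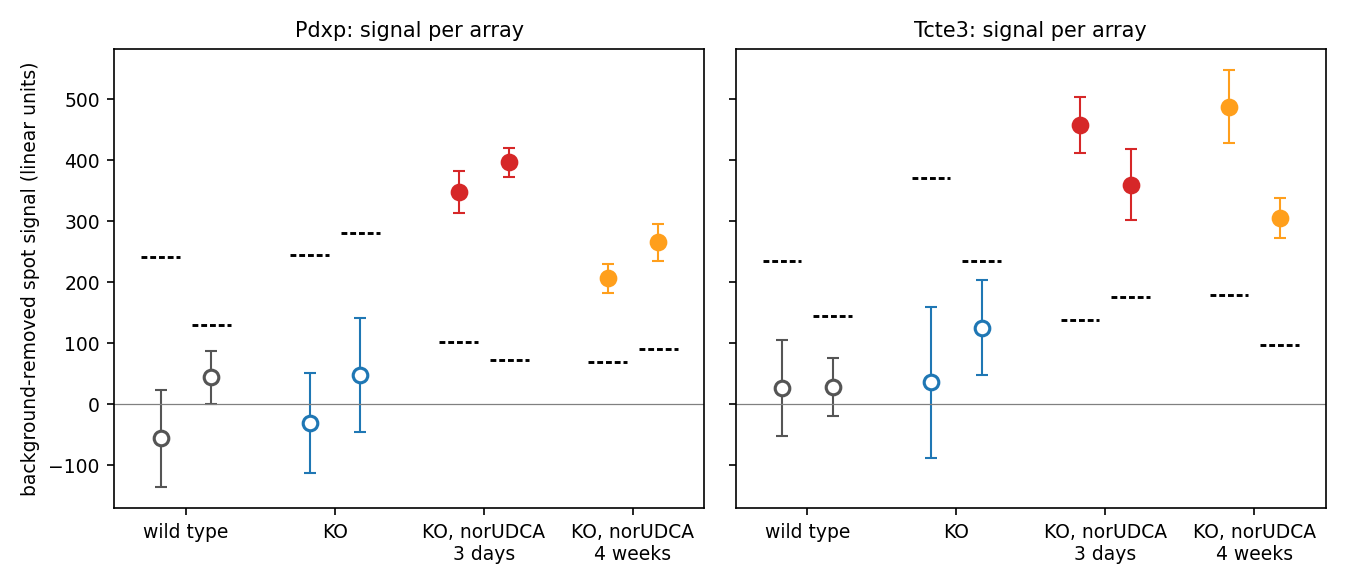
Background-removed spot signal of Pdxp (left) and Tcte3 (right) on each of the 8 arrays, as signal over noise times noise, in linear units not scaled between arrays. Bars show 1 spot noise either way, dashed marks 3 times the noise, filled points detected spots and open points undetected ones: the 4 treated arrays are filled in both panels, at 206.3 to 396.9 for Pdxp and 306.1 to 488.2 for Tcte3.

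The noise of the spots also differed between the groups. The Pdxp spot had a noise of 43.3 to 93.6 on the untreated arrays and of 23.0 to 34.1 on the treated ones. Relative to the median noise of all undetected probes on the same array, this was 0.85 to 1.52 times untreated and 0.34 to 0.73 times treated. With that array median in place of the spot's own noise, Pdxp would have reached 7.48 and 6.46 times the noise after 3 days, and 3.02 and 4.41 times after 4 weeks. The untreated arrays would have given -0.75 to 0.86. Pdxp on replicate 1 of the 4-week group was therefore at the edge of detection by this measure. For Tcte3 the noise was 0.94 to 2.30 times the array median untreated and 0.54 to 0.99 times treated. With the array median, its treated spots reached 5.07 to 9.85 times the noise and its untreated spots 0.36 to 1.57.

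On the quantile-normalized log2 scale, the WT mean of Pdxp was 6.0 ± 0.40 (SD, n = 2) and its KO mean 6.29 ± 0.08. The mean was 8.49 ± 0.31 after 3 days and 7.52 ± 0.26 after 4 weeks. Single arrays gave 6.28 and 5.71, 6.34 and 6.23, 8.27 and 8.71, and 7.34 and 7.71. In order of level, 3 days stood first and 4 weeks second, and WT and KO did not separate beyond their spread. The difference from KO was 2.20 log2 after 3 days and 1.24 after 4 weeks, and from WT 2.49 and 1.53. These comparisons share their controls and chose the gene, so they carry no test here.

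Tcte3 had a mean of 6.04 ± 0.28 (SD, n = 2) in WT, 6.78 ± 0.09 in KO, 8.60 ± 0.03 with 3 days of norUDCA and 8.13 ± 0.36 with 4 weeks. Single arrays gave 6.24 and 5.84, 6.84 and 6.72, 8.62 and 8.58, and 8.39 and 7.88. As for Pdxp, 3 days stood first and 4 weeks second. Both KO values of Tcte3 lay above both WT values, but none of these 4 was detected, so their order is no order of level. The difference from KO was 1.82 log2 after 3 days and 1.35 after 4 weeks, and from WT 2.56 and 2.09. For each gene, the lowest treated array lay 1.00 (Pdxp) and 1.03 (Tcte3) log2 above the highest untreated array.

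Because no untreated array detected either gene, the differences above have no fold of their own: the listed signal of an untreated spot is mostly its noise and does not limit the level. A lower bound, added after the values had been seen, sets each untreated spot at 3 times its noise, carried through the normalization of its array. Against KO it was 1.53-fold for Pdxp and 1.52-fold for Tcte3 after 3 days, and 1.10-fold for Tcte3 after 4 weeks. For Pdxp after 4 weeks the treated mean lay 0.35 log2 below the KO limit, so these arrays set no such bound on the fold.

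Against WT the bound was smaller still. It was 1.16-fold for Pdxp and 1.20-fold for Tcte3 after 3 days. After 4 weeks the means lay 0.75 log2 (Pdxp) and 0.20 log2 (Tcte3) below the WT limit. The limit of WT replicate 1 was 9.07 log2 for Pdxp and 9.03 for Tcte3, above all 4 treated arrays of each gene. On this scale, that array would therefore have missed either gene at its treated level. The other 3 untreated arrays had limits of 7.48 to 8.11 for Pdxp, which 2 to 3 of the 4 treated arrays exceeded. For Tcte3 their limits were 7.64 to 8.13, which 3 to 4 exceeded. Without scaling between arrays, 3 times the spot noise on WT replicate 1 was 240.72 for Pdxp and 235.05 for Tcte3. Treated signals ran from 206.39 to 396.87 for Pdxp and from 306.26 to 488.4 for Tcte3, so the reading depends on the normalization.

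**Figure D2:**
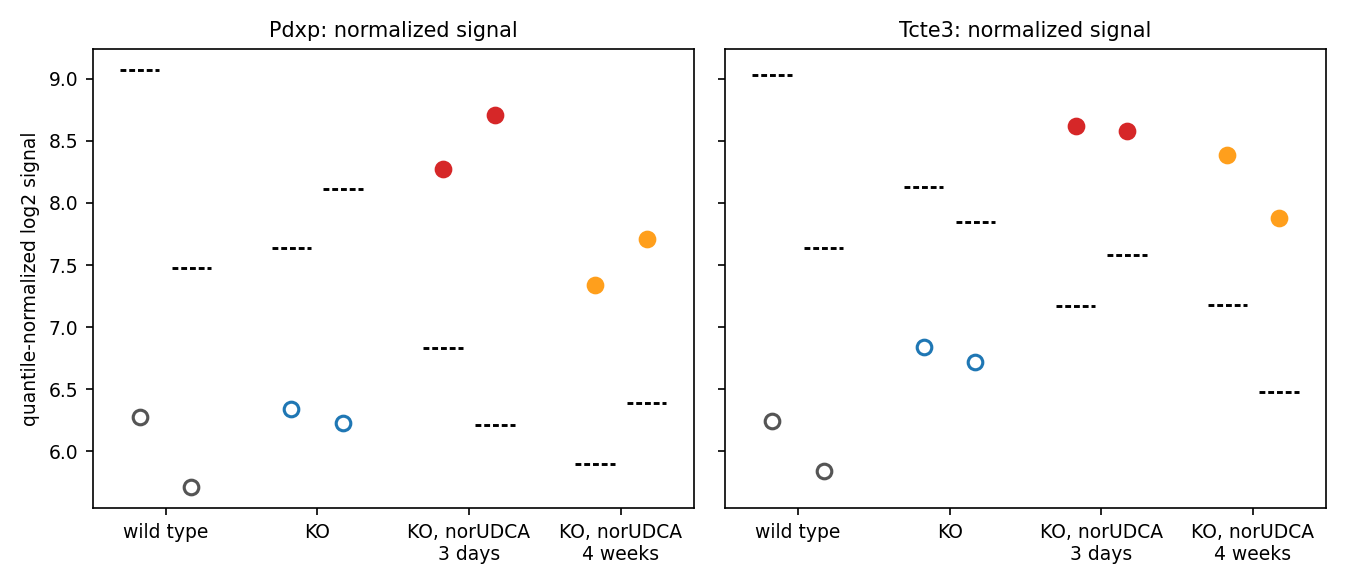
Quantile-normalized log2 signal of Pdxp (left) and Tcte3 (right) on each array by group. Filled points were detected, open points were not, and dashed marks show 3 times the spot's noise on the same scale: the mark of WT replicate 1 (9.07 and 9.03) lies above every treated array.

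The 2 durations of treatment were then compared directly. Pdxp was lower after 4 weeks than after 3 days, by 0.96 ± 0.29 log2 (SE, 2 arrays each, 1.95-fold, unadjusted 95% interval 1.19 to 3.19). Both 4-week arrays lay below both 3-day arrays, but the difference did not pass (limma, adjusted p = 0.45, unadjusted p = 0.016). For Tcte3 the difference was -0.47 ± 0.26 log2 (SE, 95% interval -1.09 to 0.16), and it did not pass either (limma, adjusted p = 0.66). On the normalized scale both 4-week arrays of Tcte3 lay below both 3-day arrays. Without scaling between arrays its signals overlapped, at 488.4 and 306.3 after 4 weeks against 457.9 and 360.6 after 3 days. Of the 16728 tested probes, limma called 0 (0.0%) in this comparison, with 1499 at an unadjusted p under 0.05. Over all tested probes the median difference was 0.03 log2, with 5% of probes below -0.93, and 4.67% lay lower than Pdxp and 14.8% lower than Tcte3. The genes were chosen with their high 3-day values known, so this comparison is not independent of that choice. Whether Pdxp and Tcte3 differed in it was not tested.

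Between untreated KO and WT the arrays give no comparison of level for either gene. All 8 spots were undetected and 6 of them are listed at their own noise, so the fit compares noise, no fold is given and its p-values support no call either way. The listed signals gave 0.29 ± 0.29 log2 (SE) for Pdxp (limma, adjusted p = 0.63) and 0.74 ± 0.26 for Tcte3 (adjusted p = 0.19, unadjusted p = 0.027). The choice of the genes did not use this comparison, though it used the same arrays. It called 189 of the 16728 tested probes (1.13%), a count that ran from 1 to 1084 when single arrays were left out: 1 without either KO array, 1084 without WT replicate 2, 54 or 55 without a 3-day array and 17 without either 4-week array. With arrays scaled to the same 75th percentile the sign turned for both genes, to -0.63 for Pdxp and -0.15 for Tcte3. These data do not place the level of either gene in KO above or below that in WT.

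**Figure D3:**
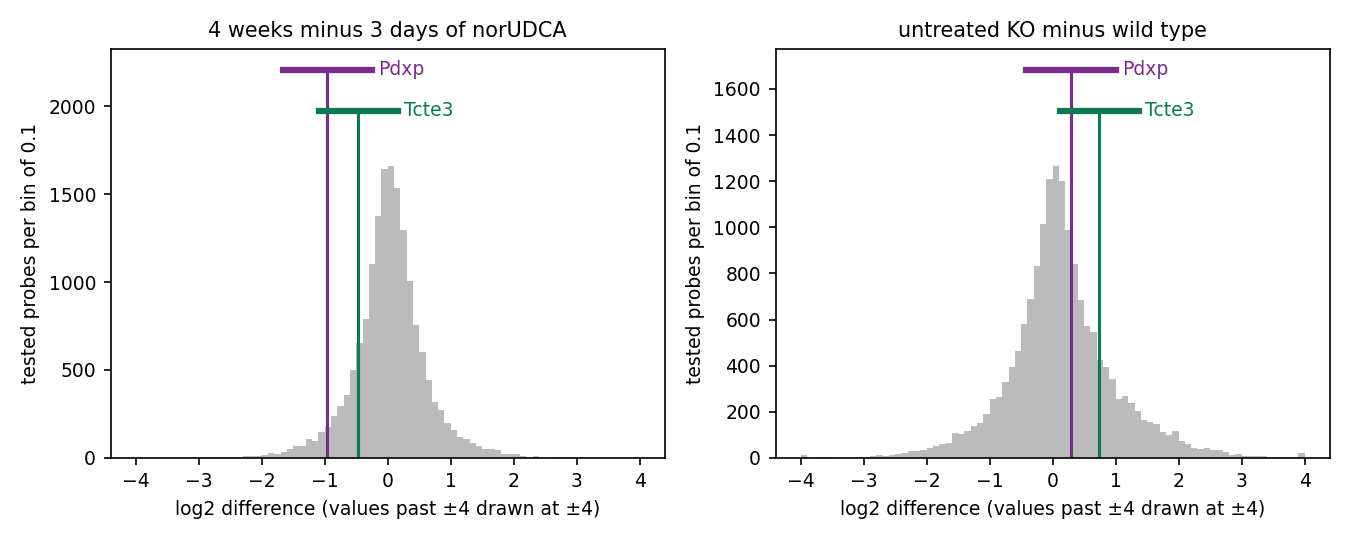
Grey bars count the 16728 tested probes by log2 difference, for 4 weeks minus 3 days of norUDCA (left) and untreated KO minus WT (right). Vertical lines mark Pdxp (-0.96 and 0.29) and Tcte3 (-0.47 and 0.74), and thick horizontal bars their unadjusted 95% intervals.

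The pattern that chose the genes was rare on these arrays. Of 28859 unflagged probes, 90 (0.312%) were detected on all 4 treated and on none of the 4 untreated arrays. Both genes are among them, by choice, and they are the only named ones. The opposite pattern was held by 5 probes (0.0173%), none of them named. Among the 90, treated minus untreated log2 signal ranged from -0.66 to 4.10 with a median of 1.23, and Tcte3 (1.96) stood 21st and Pdxp (1.86) 24th. Without WT replicate 1, the array with the lowest detection, the counts were 107 and 23, and without WT replicate 2 they were 129 and 9. The share of probes detected differed between arrays, as given above, and its part in the counts was not tested. Groups without overlap were common: 5.42% of tested probes had all treated above all untreated arrays, and 4.78% had the reverse.

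Across the 8 arrays the log2 signals of Pdxp and Tcte3 had a Pearson correlation of 0.94. The arrays fall into detected and undetected ones for both genes, which is the split that chose them, so this value is given without a test. Of the 16727 other tested probes, 49 (0.293%) followed Pdxp more closely than Tcte3 did, and 77 (0.460%) followed Tcte3 more closely than Pdxp did. None of the other named probes did so for either gene.

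The named genes most like Pdxp were Psme3 (0.80, a proteasome activator subunit), Ghdc (0.78), Unkl (0.77), Defa31 (0.77, a defensin with close paralogs) and Plin3 (0.75). Those most like Tcte3 were Plin3 (0.88, a lipid droplet protein), Aldh3a2 (0.85, a fatty aldehyde dehydrogenase), Copz2 (0.82, a coatomer subunit), Ghdc (0.81) and Slc47a1 (0.80, which exports organic cations into bile). Of these, Ghdc came nearest to the detection pattern. It was detected on all 4 treated arrays, at 9.80, 9.55, 9.23 and 9.45 log2, and on 1 of the 4 untreated arrays, KO replicate 1 at 9.48. The other untreated arrays gave 7.78, 6.79 and 6.61. Defa31 was detected on only 2 of the 8 arrays, both of them treated, so most of its values were undetected. Plin3 and Aldh3a2 differed in being detected on all 8 arrays. Plin3 averaged 10.97 in WT and 12.33 in KO before treatment and 12.89 and 13.19 after it, and Aldh3a2 averaged 12.07 and 12.20 before and 12.82 and 13.29 after. For both the 4-week mean was above the 3-day mean, whereas Pdxp and Tcte3 had their highest mean after 3 days. As given above, limma called no tested probe between the durations.

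The related genes were mostly out of reach. Of 137 other genes in 5 lists (vitamin B6 metabolism, enzymes that use pyridoxal phosphate, phosphatases of the haloacid dehalogenase family, Tctex light chains, and dynein and axoneme), 2 had a tested, named probe. These lists were written with earlier results of the data known. Nt5m, a mitochondrial nucleotidase of the same phosphatase family as Pdxp, was detected on all arrays, at 10.56 ± 0.17 (SD, n = 2) log2 in WT and 11.10 ± 0.07 in KO. It stood at 11.04 ± 0.03 after 3 days of norUDCA and 10.74 ± 0.03 after 4 weeks. Dynlt1b, a Tctex-type light chain like Tcte3, was detected on all arrays too, at 10.44 ± 0.21 in WT, 10.32 ± 0.48 in KO, 10.25 ± 0.27 with 3 days of norUDCA and 9.94 ± 0.06 with 4 weeks. Against KO, Nt5m differed by -0.06 ± 0.19 and -0.36 ± 0.19 log2 (SE) after 3 days and 4 weeks, and Dynlt1b by -0.06 ± 0.30 and -0.38 ± 0.30.

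Neither passed in any of the 6 comparisons of groups (limma, adjusted p from 0.17 to 0.95). The share of tested probes called was 0.233% for 3 days against KO, 0.0478% for 4 weeks against KO, 5.78% for 3 days against WT and 2.27% for 4 weeks against WT. No gene of the vitamin B6 list other than Pdxp, and no enzyme using pyridoxal phosphate, could be followed here.

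Position was the remaining property that could be compared. Within 1 Mb of Pdxp on chromosome 15 lie 60 other protein-coding genes, of which 3 had a tested, named probe: Gga1 (a Golgi adaptor), Cdc42ep1 (an effector of the GTPase Cdc42) and Lgals1 (galectin-1). Gga1 averaged 10.78 log2 in WT, 9.56 in KO, 10.77 with 3 days of norUDCA and 9.96 with 4 weeks, so its treated arrays (9.87 to 10.94) overlapped the WT arrays (10.72 and 10.85) and lay above both KO arrays (9.43 and 9.70). Cdc42ep1 averaged 9.52, 9.77, 10.55 and 9.85 in the same order, and Lgals1 10.89, 13.23, 12.50 and 12.76. Correlations with Pdxp over the 8 arrays were 0.24, 0.56 and 0.33. Cdc42ep1, like Pdxp, had its highest mean after 3 days and the next after 4 weeks, but its arrays overlapped between treated and untreated. Gga1 and Lgals1 had other orders. These neighbours were looked up after their values had been seen. No named, tested probe lay within 1 Mb of Tcte3.

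Markers of other cells that could be measured moved in several ways beside the 2 genes. The marker lists, too, were written with earlier results of these data known. Krt23, a marker of bile duct cells, averaged 6.39 log2 in WT, 10.77 in KO, 9.45 with 3 days of norUDCA and 7.53 with 4 weeks. Wfdc2, from the same list, averaged 6.91, 9.69, 9.29 and 10.38. On the WT arrays 0 of these 2 markers were detected, and on all 6 KO arrays both were, treated or not, unlike Pdxp and Tcte3. The lymphoid genes Ccl21a (6.94, 10.10, 8.39 and 8.49) and Bcl2a1b (8.54, 10.36, 9.59 and 10.63) were detected on 1 of the 2 WT arrays and on all 6 KO arrays.

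Some markers did separate treated from untreated arrays, which is given as a description. Of all tested probes, 4.78% had every treated array below every untreated one. Hba-a1, a globin of red blood cells, was lower on each treated array than on any untreated array, with means of 17.60, 15.78, 13.93 and 15.43. The hepatocyte genes G6pc, Dio1 and Hsd3b4 had the same direction without overlap. Dio1, the deiodinase, averaged 14.58, 12.44, 9.95 and 9.89, and G6pc, which releases free glucose, 15.95, 15.43, 14.31 and 14.27. Hsd3b4, a steroid dehydrogenase, averaged 15.33, 12.76, 7.34 and 5.89, and was detected on 1 of the 4 treated arrays. The other 3 hepatocyte markers overlapped between treated and untreated arrays. Sult5a1, a sulfotransferase, averaged 13.95, 12.44, 12.31 and 10.60, Mup1, a major urinary protein, 20.34, 20.27, 20.50 and 19.96, and Pemt, of phosphatidylcholine synthesis, 15.23, 15.65, 15.62 and 15.65. The part of cell composition in the Pdxp and Tcte3 values was not tested.

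**Figure D4:**
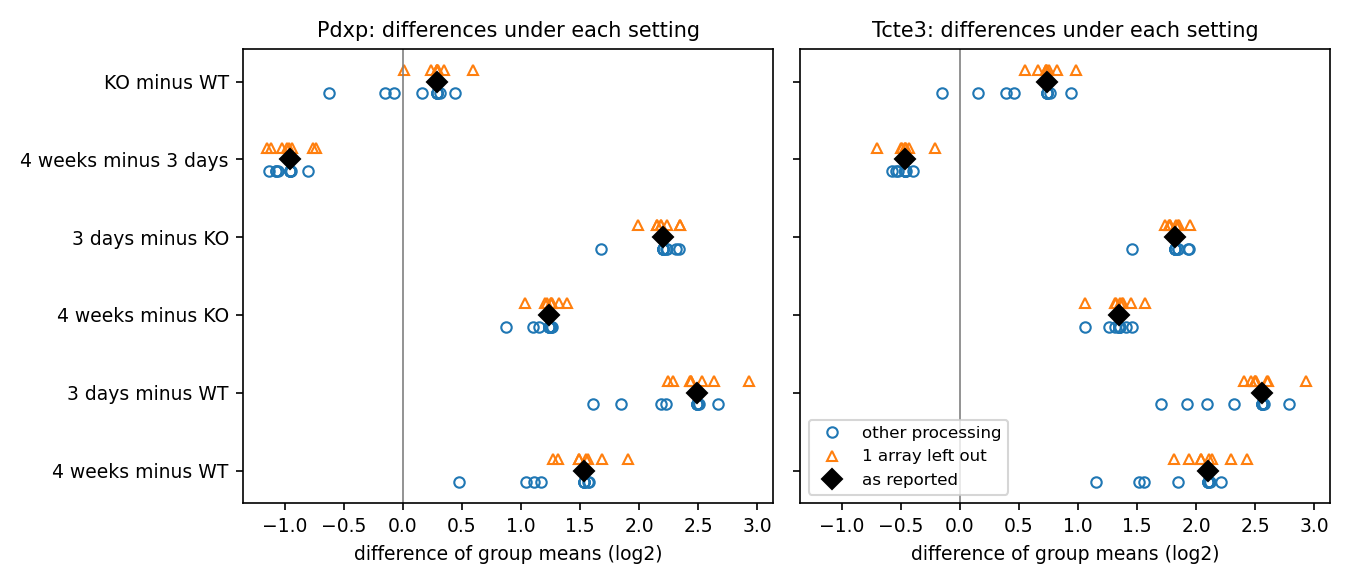
Log2 differences of Pdxp (left) and Tcte3 (right) between groups as reported (diamonds), under other processing (circles) and with 1 array left out (triangles). Treated minus untreated, the direction that chose the genes, stays above 0 in each setting. The difference of 4 weeks minus 3 days stays below 0, and KO minus WT falls on both sides of 0.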

How the data were processed

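The 8 liver RNA samples were labelled by oligo(dT)-primed reverse transcription with digoxigenin and read by chemiluminescence, per the labels' protocols. The scanner files hold a signal, an intensity on a linear scale deposited with background already removed, the noise of each spot, and signal over noise, a score also as deposited. The authors' deposited value table holds an intensity that matched the files' assay-normalized signal within 0.06 for 100% of values, linear and uncentred, with medians of 1.07 to 1.60 per array. The image software is not given in the sources used here. Of 264096 gene spots, 107688 were listed at exactly their noise. For these, the files also give the noise as a share of the size of the measured signal. The size of signal over noise was the inverse of that share within 5%. This held on 99.6% to 99.9% of those spots per array that reached 0.2 of their noise in size. The check compares deposited ratios, so it does not test the measured signal itself or its sign.

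Groups and replicate numbers come from the sample titles. A flag of 5000 or higher on any array removed 4153 probes. The log2 signals of the remaining 28859 were quantile-normalized. A probe was tested if 2 or more arrays detected it (signal at least 3 times noise), which left 16728. The test was limma 3.58.1 in R 4.3.3 over all 8 arrays (4 residual and 1.96 prior degrees of freedom), with two-sided p-values adjusted by Benjamini-Hochberg over all tested probes and a threshold of 0.05. Both genes passed this filter only through the treated arrays. Names came from a RefSeq table of GRCm38.p6, which named 311 of the 33012 gene probes, 158 of them tested. Genes most alike are the 5 named probes with the highest Pearson correlation over the arrays. The genes and lists were chosen with earlier results of these data known. The number of arrays limits the precision. Alternatives covered normalization, an offset, flags, filters, the replicate block, the arrays in the fit and each array left out.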

Additional observations from a re-analysis of the deposited data

How the results depend on the processing

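In all 18 alternatives, Pdxp and Tcte3 kept their direction for treated minus untreated and for 4 weeks minus 3 days. Each alternative scaled the arrays to each other, so unscaled signals were not among them. Neither gene passed for 4 weeks minus 3 days or KO minus WT. The KO minus WT fit compares noise, as given above, so its p-values in every setting support no call either way. The genes were chosen for treated above untreated, so the kept direction there is no support for it. The replicate block, the detection filters and the fit of only the arrays compared leave a difference of group means unchanged by design. These values moved by more than the replicate spread or changed sign. With 50 added to every signal, 3 days minus KO was 1.68 log2 for Pdxp and 1.46 for Tcte3, 4 weeks minus KO 0.87 and 1.06, 3 days minus WT 1.85 and 1.92, and 4 weeks minus WT 1.04 and 1.52. With arrays scaled to the same 75th percentile, 3 days minus WT was 1.61 and 1.70, 4 weeks minus WT 0.47 and 1.15, and KO minus WT -0.63 and -0.15. With arrays scaled to the same median, Tcte3 gave 1.93 (3 days minus KO) and 2.32 (3 days minus WT), and Pdxp 1.17 (4 weeks minus WT) and -0.08 (KO minus WT). That scaling moved the median of all tested probes from 0.09 to 0.48 for KO minus WT, from 0.07 to 0.50 for 3 days minus WT and from 0.09 to 0.61 for 4 weeks minus WT. With cyclic loess, Tcte3 gave 1.94 (3 days minus KO), 2.09 (3 days minus WT) and 1.56 (4 weeks minus WT), and Pdxp 1.11 (4 weeks minus WT) and -0.15 (KO minus WT). From the deposited assay-normalized values, Tcte3 was 2.79 for 3 days minus WT. For KO minus WT, Tcte3 (0.74 as reported) was 0.39 with median scaling, 0.15 with cyclic loess, 0.46 with the offset and 0.94 from the deposited values. The cause of these moves was not tested.

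With single arrays left out, Pdxp ranged from 0.01 to 0.59 (KO minus WT), -1.15 to -0.74 (4 weeks minus 3 days), 1.99 to 2.35 (3 days minus KO), 1.03 to 1.39 (4 weeks minus KO), 2.25 to 2.93 (3 days minus WT) and 1.27 to 1.91 (4 weeks minus WT). Tcte3 ranged from 0.55 to 0.98 (KO minus WT), -0.70 to -0.21 (4 weeks minus 3 days), 1.74 to 1.95 (3 days minus KO), 1.06 to 1.57 (4 weeks minus KO), 2.41 to 2.93 (3 days minus WT) and 1.81 to 2.43 (4 weeks minus WT). Adjusted p ranged over all alternatives from 0.32 to 1.00 (Pdxp) and 0.53 to 1.00 (Tcte3) for 4 weeks minus 3 days, and from 0.40 to 0.99 and 0.12 to 0.90 for KO minus WT.

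Probes called between KO and WT numbered 303 with median scaling, 74 with the 75th percentile, 62 with cyclic loess, 341 with the offset, 9 without the filter, 371 with detection on at least 4 arrays, 0 with only the 4 arrays compared (limma, 2334 at an unadjusted p under 0.05), and 1 to 1084 with single arrays left out. Between the durations, 11 were called with median scaling and 1 with the 75th percentile.

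With the replicate block, 7 probes were called between KO and WT, and Pdxp and Tcte3 gave adjusted p of 0.55 and 0.64 for 4 weeks minus 3 days. Deviations of same-numbered arrays correlated at -0.04 to 0.03 over the 6 pairs of groups. This check runs over all tested probes and cannot exclude a shared origin that acts on some of them. The labels give only the number. Signal close to the noise limits every value of the untreated groups.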
